A study of Mus musculus with 12 samples.

Results

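Polysome-associated mRNA of mouse neural stem cells (NSCs) grown in low or mid folate was compared at the level of single methylated cytosines and at the level of whole genes. The comparison used 4 of the 12 RNA bisulfite sequencing libraries of the study, namely replicates 1 and 2 of low-folate polysome mRNA (pLF) and replicates 1 and 2 of mid-folate polysome mRNA (pMF). The members were all cytosines listed in these 4 libraries. They gave 156 high-confidence m5C sites, 1074 sites under a standard filter, and 7682 genes with a measurable coverage. Both groups were adult NSCs from the subventricular zone of wild-type (WT) male C57BL/6 mice aged 6 to 8 weeks, cultured with EGF and bFGF. The cells received 1.5 μM (LF) or 10 μM (MF) folic acid for 4 days. Cycloheximide was added before lysis, polysomes were collected from a sucrose gradient, and poly(A) RNA was selected before conversion. The replicates are labelled biological duplicates, and n = 2 per group applies throughout. No untreated or folate-free group was analysed here, so each difference is between 2 supplied doses of the vitamin.

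Folate carries the 1-carbon units that cells use for thymidylate and purine synthesis and for the remethylation of homocysteine to methionine. Methionine is the precursor of S-adenosylmethionine, the methyl donor of RNA methyltransferases. In mRNA, 5-methylcytosine (m5C) is laid down mostly by NSUN2, which favours cytosines followed by a G-rich stretch, and at a smaller number of sites by NSUN6, which recognises a cytosine followed by TCCA. Bisulfite converts unmodified cytosine to uracil, read as T, while m5C stays C. The methylation level of a site is the share of unconverted reads among unconverted and converted reads, given here in percent. A cytosine that resists conversion because of RNA structure also reads as C. Polysomes are mRNAs carrying several ribosomes, and mRNA in these fractions is commonly taken as the translated pool.

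Each library listed between 983889 and 1645522 cytosines without a variant call, with a summed coverage between 1186213013 and 2202817210 over all listed cytosines and a median coverage between 337 and 395 reads. The lists begin at 10 reads of coverage and 1 unconverted read, so a fully converted cytosine does not appear. Library pLF replicate 1 stood apart from the others. On the first principal component of gene coverage at cytosines listed in all 4 libraries (56.8% of the variance) it lay at -13.8, while pLF replicate 2, pMF replicate 1 and pMF replicate 2 lay at 5.12, 3.22 and 5.45. Of 20 NSC markers, 17 reached the minimum for gene coverage, among them Nes, Vim, Fabp7, Hes5 and Egfr. Gfap and Prom1 did not reach it, and the cytosines at the Sox2 locus were listed under the overlapping transcript Sox2ot. No endothelial or ependymal marker reached it, and 2 of 12 microglia markers did.

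The sites on which the results turn are shown as 21 bases of mm10 on the strand of the RNA, 5′ to 3′, with the tested cytosine as the capital letter. The first set holds high-confidence sites whose level was higher in pLF. They lay in the 3′ UTR of Hs2st1 (chromosome 3, position 144434226, minus strand), the 3′ UTR of Slc25a51 (chromosome 4, 45398952, minus), exon 7 of Fahd2a (chromosome 2, 127436616, minus, coding), and exon 1 of Igfbp4 (chromosome 11, 99041697, plus, coding).
Hs2st1: cttacattgcCtaaaatacac
Slc25a51: cggggcatctCaggctcattc
Fahd2a: actctttaccCaggggacctc
Igfbp4: ggatgccctgCggggtgtaca
The second set was lower in pLF. These sites lay in exon 1 of Ppm1m (chromosome 9, 106199113, minus, coding), the 3′ UTR of Fam131a (chromosome 16, 20701948, plus), the 3′ UTR of Rptor (chromosome 11, 119899079, plus), and exon 19 of Ptprn (chromosome 1, 75251753, minus, coding).
Ppm1m: cgcgctccagCccggtgccct
Fam131a: cctctgtggcCaaatgtgggc
Rptor: ctcagttctgCagagagcttc
Ptprn: tggacttccgCaggtgagcaa
The third set had nearly equal pooled levels, in the 3′ UTR of Tab1 (chromosome 15, 80160366, plus) and of Wbp2 (chromosome 11, 116078957, minus).
Tab1: ctgacctttgCgggggccatg
Wbp2: cactgtgttaCagaggaagcc
The last set passed the standard filter but was not on the high-confidence list. These sites lay in the 3′ UTR of Hnrnpa2b1 (chromosome 6, 51462898, minus), of Slc6a6 (chromosome 6, 91755488, plus) and of Ubqln1 (chromosome 13, 58176556, minus), in exon 7 of Eif3e (chromosome 15, 43265514, minus, coding), and in the 3′ UTR of Ccnd1, where 144931128 lies upstream of 144931126 on the minus strand of chromosome 7.
Hnrnpa2b1: taagatttttCtcaaaagttt
Slc6a6: gaaagttctgCccaaaaacaa
Ubqln1: gttcagtattCtcttatctta
Eif3e: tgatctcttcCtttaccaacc
Ccnd1 upstream: gcttgactttCccaacccaat
Ccnd1 downstream: ttgactttccCaacccaattg

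The high-confidence sites and the other filtered sites differed in the bases that follow the cytosine. An NSUN2-like context was defined as at least 2 G among positions 2 to 4 downstream, and an NSUN6-like context as TCCA at positions 1 to 4 downstream, read on the RNA strand only. Of 222159 background cytosines, which were covered by 20 or more reads with a level under 0.05 in each of the 4 libraries, 22.4% had the NSUN2-like and 0.760% the NSUN6-like context. Of the 156 high-confidence sites, 71.2% were NSUN2-like and 5.13% NSUN6-like. Of 19 isolated sites off the list, 26.3% were NSUN2-like and none NSUN6-like. In the printed sequences, Slc25a51, Fahd2a, Igfbp4, Ppm1m, Rptor, Ptprn, Tab1 and Wbp2 carry the NSUN2-like context, and Hs2st1, Fam131a, Hnrnpa2b1, Slc6a6, Ubqln1, Eif3e and both Ccnd1 sites carry neither. A context match is a property of the letters and does not show which enzyme acted.

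The average methylation level of the high-confidence sites did not separate low from mid folate, while the level over their pooled reads was slightly lower in pLF. The list of high-confidence sites was made by the study from the same libraries after filters that need the reads, and only its positions were used. Of its 253 sites, 173 were listed for pLF or pMF, and 156 were covered by 20 or more reads in each library. These 156 lay in 145 genes, apart from 7 in no annotated gene. Of the other 17, 8 were not listed in at least 1 library, and 9 were listed with a lower coverage. The mean level over the 156 sites was 19.5% in pLF replicate 1, 20.7% in pLF replicate 2, 20.2% in pMF replicate 1 and 20.3% in pMF replicate 2. Both pMF values lay between the pLF values. The group means were 20.1% ± 0.836 (SD) in pLF and 20.2% ± 0.115 in pMF, a difference of -0.175 percentage points (exact two-sided permutation p = 1, where 2 against 2 libraries allow no p under 0.333). Without pLF replicate 1 the difference was 0.416 percentage points, of opposite sign. With the reads of all 156 sites pooled, so that deep sites weigh more, the level was 18.2% and 18.3% in pLF and 18.8% and 19.4% in pMF. These groups did not overlap, with a difference of -0.815 percentage points (exact permutation p = 0.333, the smallest possible). How the reads divide among the sites differs between libraries and can enter this difference. The median level over the sites was 16.3% and 16.2% in pLF and 16.7% and 16.3% in pMF, with overlapping groups. As the background, the share of unconverted reads at cytosines with a level under 0.05 was 0.176% and 0.181% in pLF and 0.183% and 0.191% in pMF. The groups did not overlap in this share, with a difference of -0.00833 percentage points (exact permutation p = 0.333). On cytosines listed in all 4 libraries it was 0.121% and 0.129% in pLF and 0.124% and 0.131% in pMF, with overlapping groups.

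Individual sites differed in both directions, in shares that depended on the libraries. The reads of replicates were pooled and compared by Fisher's exact test, which the study's methods name. At a Benjamini-Hochberg adjusted p under 0.05, 8 sites were higher (5.13%) and 9 lower (5.77%) in pLF, so that 10.9% of the 156 tested sites passed. At an unadjusted p under 0.05, 18 were higher and 24 lower. Pooling leaves out the spread between replicates. The same test between the replicates of a single condition passed 23 sites in pLF, where 17 were lower in replicate 1, and 3 sites in pMF. With a beta-binomial likelihood ratio test, which holds such a spread as a value shared by all sites, 1 site passed, the one in Hs2st1 (0.641%). With limma on the log odds, 0 passed, with 9 higher and 8 lower at an unadjusted p under 0.05. The 17 sites of Fisher's test are given below as read differences between these 4 libraries. Of them, 16 had replicates that did not overlap between the groups, against 43.6% of all 156 sites. Of the 17, 6, 11, 13 and 5 stayed past the threshold without pLF replicate 1, pLF replicate 2, pMF replicate 1 and pMF replicate 2. Only Hs2st1 and Slc25a51 passed in each of these 4 settings, and both had been listed for pLF only. Over all 156 sites, 8 were higher and 3 lower without pLF replicate 1, and 7 higher and 17 lower without pLF replicate 2. With each site thinned to its smallest coverage, 5 were higher and 11 lower.

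**Figure D1:**
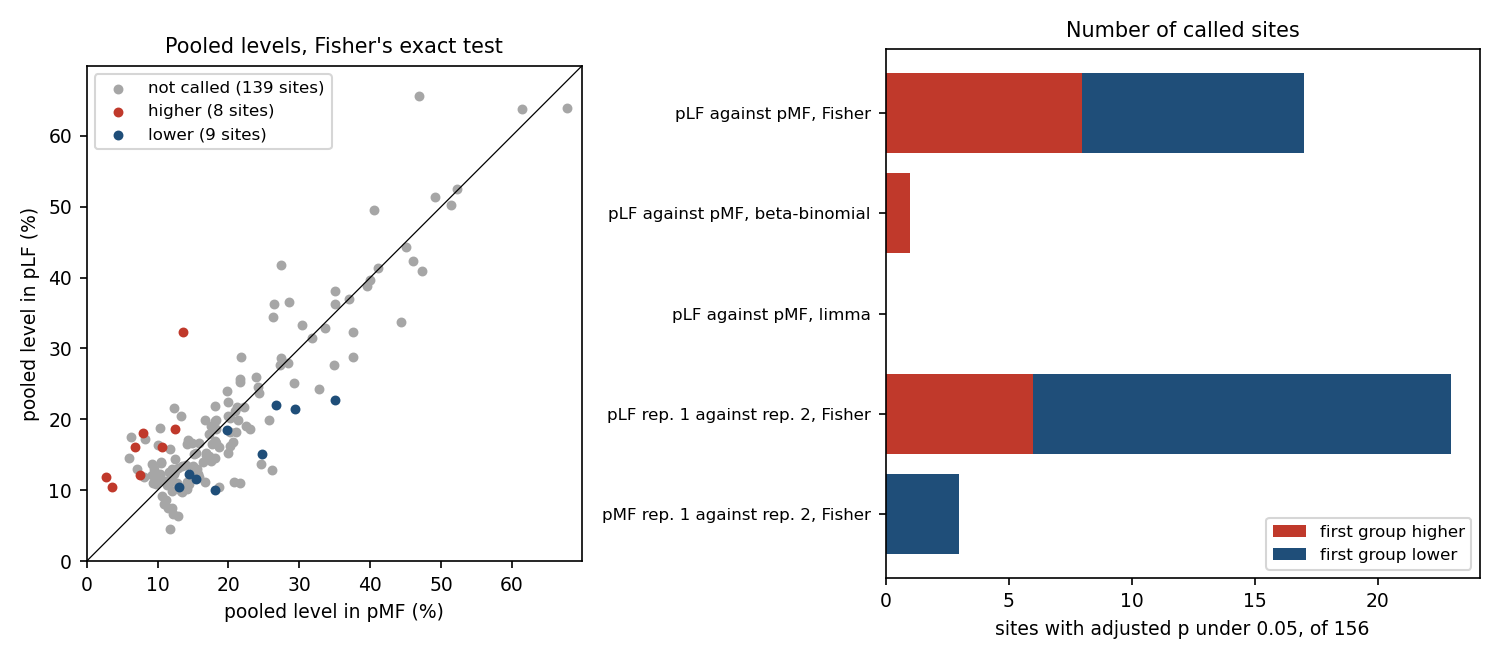
Left, pooled methylation level of each of the 156 high-confidence sites in pMF (horizontal axis, %) against pLF (vertical axis, %), with the line of equality; 8 sites higher in pLF by Fisher's exact test are red and 9 lower are blue. Right, number of sites with an adjusted p under 0.05 for each comparison and test, where the comparison of the pLF replicates with each other (23) exceeds that of pLF with pMF (17).

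The site in Hs2st1, the heparan sulfate 2-O-sulfotransferase, had the smallest p of the 156. It was listed by the study for pLF only, so its direction was fixed in part by the choice of sites. Its level was 13.7% and 10.8% in pLF and 1.19% and 4.55% in pMF, from 226, 417, 253 and 198 reads. Both pLF libraries were higher than both pMF libraries, by 9.16 percentage points in pooled level (Fisher's exact test, adjusted p = 1.15e-06; beta-binomial adjusted p = 0.0201, or 0.0690 in the fit of the 1074 filtered sites, which has an overdispersion of its own). In total mRNA the site was at 1.82% and 0.562% in LF and was not listed in either MF library. The site in Slc25a51, the mitochondrial NAD+ carrier, was at 10.6% and 10.4% in pLF and at 3.16% and 4.13% in pMF. The pLF replicates differed little, and the groups were 6.87 percentage points apart (Fisher's exact test, adjusted p = 0.000757; beta-binomial test, adjusted p = 0.339). In total mRNA its level lay between 8.49% and 10.0% in all 4 LF and MF libraries, close to the pLF values.

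The largest difference among the higher sites was in Fahd2a, a member of the fumarylacetoacetate hydrolase family. Its level was 22.8% and 36.4% in pLF and 13.8% and 13.4% in pMF, from only 57 to 132 reads per library. The groups did not overlap, but the pLF replicates were farther apart than pLF replicate 1 was from pMF (difference 18.7 percentage points, Fisher's exact test, adjusted p = 0.00246). Col16a1, which encodes a fibril-associated collagen chain, was at 23.3%, 12.9%, 10.1% and 6.48% in pLF replicates 1 and 2 and pMF replicates 1 and 2. Within 25 bases of it, another cytosine also met the limits of the standard filter in at least 1 library. Tmem176a, a transmembrane protein gene, was the only intronic site of the 156 and was at 14%, 17.5%, 9.80% and 3.81%. In Col16a1 and Tmem176a the groups did not overlap, but replicates of a condition were farther apart than the nearest libraries of different conditions, and neither site passed the beta-binomial test.

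The remaining higher sites had smaller differences and deeper coverage. Rnf166, a RING-type ubiquitin ligase, was at 17.0% and 20.4% in pLF and at 12% and 12.9% in pMF. Igfbp4, a binding protein of insulin-like growth factors, was at 17.1% and 15.1% in pLF and at 11.3% and 10.1% in pMF, with coverages from 362 to 716. Rxrb, the retinoid X receptor beta, was at 12.1% and 12.2% in pLF and at 10.1% and 4.79% in pMF. None of these groups overlapped, and in Rxrb the pMF replicates were farther apart than pMF replicate 1 was from pLF. The differences were 6.21, 5.37 and 4.69 percentage points in Rnf166, Igfbp4 and Rxrb (Fisher's exact test, adjusted p = 0.0315, 0.0157 and 0.0173).

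Among the lower sites, Ppm1m, a protein phosphatase of the PP2C family, had the largest difference. It was at 25.6% and 20.6% in pLF and at 32.5% and 37.9% in pMF (difference -12.4 percentage points, Fisher's exact test, adjusted p = 0.0173). Another cytosine within 25 bases of the Ppm1m site also met the limits of the standard filter in at least 1 library. Rptor encodes Raptor, the scaffold of mTORC1, and its 3′ UTR site was at 16.6% and 25.4% in pLF and at 27.6% and 31.4% in pMF, from 538 to 668 reads. Its pLF replicates were farther apart than pLF replicate 2 was from pMF replicate 1, and the pooled difference was -8.03 percentage points (Fisher's exact test, adjusted p = 0.000716). Ephb3, an ephrin receptor, carried the only 5′ UTR site past the threshold, at 10.6%, 9.15%, 14.3% and 23.3% in the same order of libraries. Fam131a was at 14.5% and 15.9% in pLF and at 22.0% and 26.5% in pMF.

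The 5 other lower sites differed by less than 5 percentage points. Cenpv, a centromere protein, was at 20.4% and 23.3% in pLF and at 26.7% and 26.6% in pMF. Ppil1, a peptidyl-prolyl isomerase of the spliceosome, was at 9.61% and 12.7% against 16.8% and 14.3%. Ptprn, a protein of dense-core vesicles, was at 10.3% and 10.6% against 14% and 12.2%. These groups did not overlap. Fscn1, which encodes the actin-bundling protein fascin, was by far the deepest of the named sites, with 7152 to 13473 reads, and was at 18.1%, 19.0%, 19.1% and 20.6%. Its difference of -1.29 percentage points passed Fisher's exact test (adjusted p = 0.0242), although pLF replicate 2 and pMF replicate 1 were nearly equal. Glod4, a glyoxalase-domain protein, was at 9.57%, 13.8%, 13.2% and 15.8%, with overlapping groups (difference -2.10, Fisher's exact test, adjusted p = 0.0157).

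The sites of smallest pooled difference with at least 100 reads in each library included those of Tab1, Foxo3 and Wbp2. Tab1, which activates the kinase TAK1, was at 13.4% and 13.5% in pLF and 12.7% and 14.2% in pMF. The site in Wbp2, a WW domain binding protein, was at 14.3%, 16.1%, 16% and 14.8%. Foxo3, a forkhead transcription factor, was at 21.6%, 19.1%, 23.8% and 16.5%. In Foxo3 the pooled levels were alike while the pMF replicates spanned more than the pLF replicates.

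**Figure D2:**
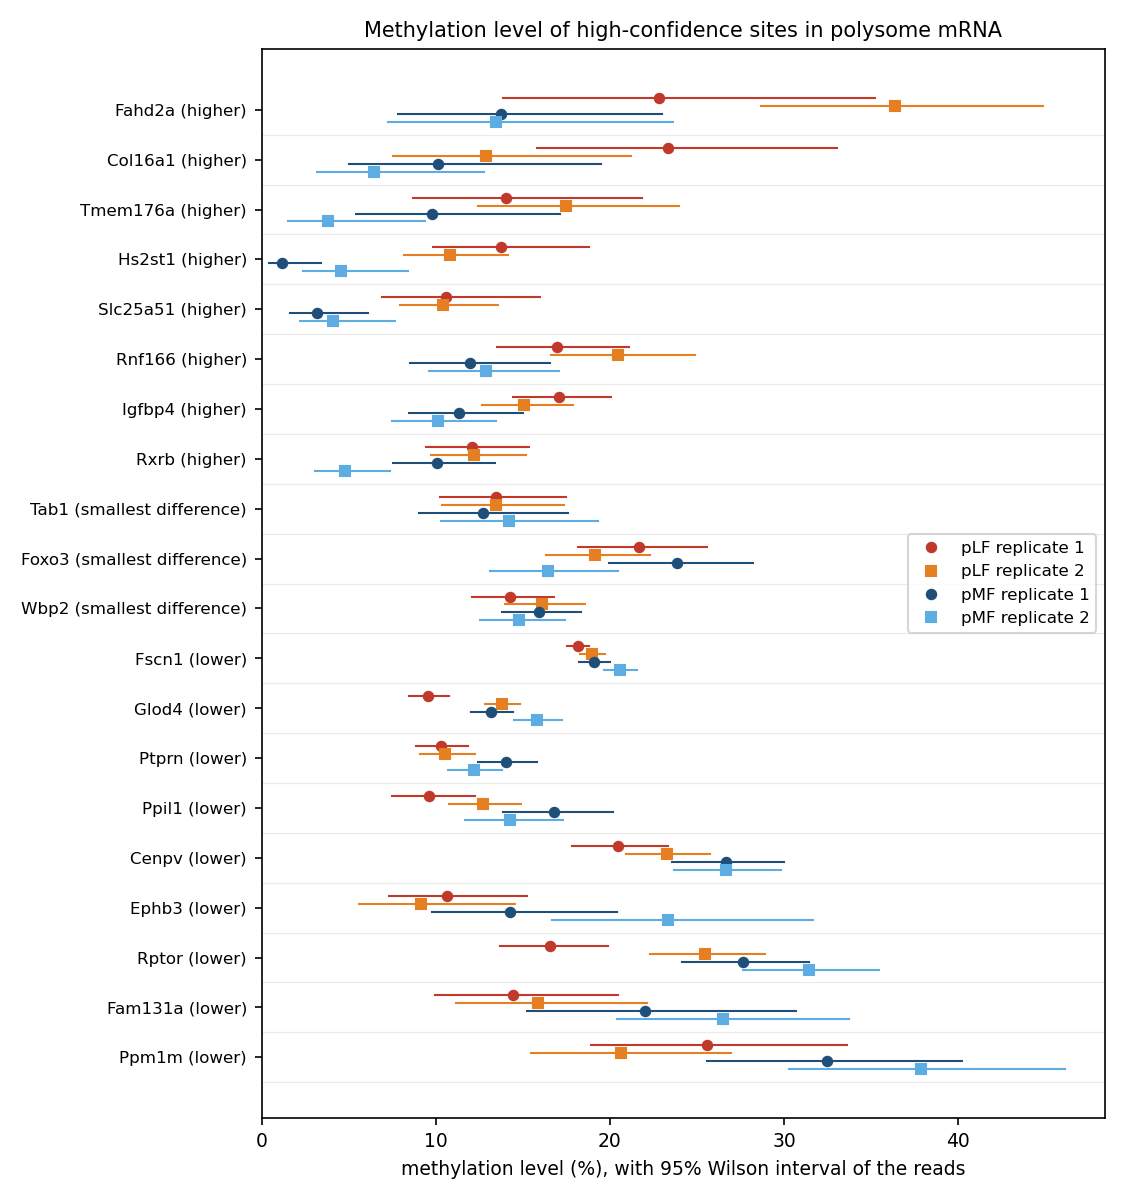
Methylation level (horizontal axis, %) in each of the 4 polysome libraries at the 17 high-confidence sites past the threshold of Fisher's exact test and at 3 of the sites of smallest difference. Points are libraries and bars their 95% Wilson intervals, which cover the counting error of reads only; at Hs2st1 and Slc25a51 both pLF points lie above both pMF points, and at Fscn1 all libraries lie between 18.1% and 20.6%.

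The 17 sites lay in several contexts and transcript regions. Among 111 NSUN2-like sites 7 were higher and 7 lower, among 37 sites of other context 1 was higher (Hs2st1) and 2 were lower (Fam131a and Ppil1), and none of the 8 NSUN6-like sites passed. The NSUN6-like sites had mean levels of 27.2%, 29.2%, 27.2% and 29.6%, with nearly the same range in both groups. By region, 4 higher and 5 lower sites were among 79 coding sites, 3 higher and 3 lower among 54 in 3′ UTRs, and 0 higher and 1 lower among 9 in 5′ UTRs. The list itself leans on direction, because a site had to pass the study's filters in a condition to be listed for it. Of 28 sites listed for pLF only, 5 were higher (Hs2st1, Slc25a51, Rxrb, Tmem176a and Col16a1) and 0 lower, and of 33 listed for pMF only, 0 were higher and 3 lower (Glod4, Ephb3 and Ppil1). Those counts are not independent evidence of direction. Among the 95 sites listed for both conditions, 3 were higher and 6 lower.

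No gene that carries a high-confidence site passed a test of its coverage between the conditions. The coverage of a gene was taken as the median coverage of its listed cytosines with a level under 0.05, and it was scaled to the median gene of its library. Of the 145 genes, 132 could be tested, and 0 passed limma, with 5 at an unadjusted p under 0.05, as 4.26% of all genes had. Their median log2 difference (pLF minus pMF) was 0.13, against 0.04 over all genes tested. On cytosines listed in all 4 libraries, 49 could be tested, 0 passed, 5 had an unadjusted p under 0.05 where 5.48% of all genes did, and the median was 0.01 against 0.02. On these shared cytosines Ppil1, whose site was lower in pLF, had a relative coverage of 1.36 and 1.24 in pLF and 0.995 and 0.974 in pMF (log2 difference 0.40, limma adjusted p = 0.897). Over all its listed cytosines Igfbp4, whose site was higher, had 2.08 and 1.98 in pLF and 1.13 and 1.26 in pMF (0.77, limma adjusted p = 0.993). On shared cytosines it had 1.21, 0.927, 0.840 and 0.938, with overlapping groups.

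More filtered sites were higher in pLF than lower, with the filter itself fixing part of that direction. The standard filter kept a cytosine with 20 or more reads, 6 or more of them unconverted, and a level of 0.1 or higher in both replicates of a condition. It kept 1822 sites, of which 1074 were covered by 20 or more reads in each library. By Fisher's exact test, 93 of them were higher and 11 lower in pLF (8.66% and 1.02%, or 9.68% in all). The beta-binomial test passed 3, all higher (0.279%), and limma 0, with 164 higher and 16 lower at an unadjusted p under 0.05. These 3 were the site in Hnrnpa2b1 and a pair in Ccnd1 that lies 2 bases apart and is not 2 separate observations. Between replicates of pLF, Fisher's test passed 36 sites, and between those of pMF 2. A site that entered through a single condition had to have a level of 0.1 there, which leans its direction. Of 130 sites that entered through pLF only, 69 were higher and 0 lower, and of 58 through pMF only, 1 was higher and 4 lower. Those counts are not independent evidence of direction. Among the 886 sites that passed the filter in both conditions, 23 were higher and 7 lower. The 1074 sites hold many that share reads. Besides the 156 high-confidence sites they comprised 63 in the mitochondrial gene mt-Co1, 836 nuclear sites with another filtered site within 25 bases, and 19 isolated nuclear sites off the list.

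Of the 19 isolated sites off the list, 7 were higher in pLF and 0 lower, in Hnrnpa2b1, Slc6a6, Eif3e, Ubqln1, Zfp24, Acp1 and Gltp. By entry, 5 of the 7 (Hnrnpa2b1, Eif3e, Ubqln1, Zfp24 and Gltp) were among the 9 sites that passed the filter in pLF only, 1 (Slc6a6) was among the 9 that passed in both conditions, and 1 (Acp1) was the single site that passed in pMF only. All 7 were among the 14 sites without the NSUN2-like or NSUN6-like context, and none among the 5 NSUN2-like sites. The mean level of the 14 was 26.1% and 26.3% in pLF and 12.6% and 17.1% in pMF, but 8 of them had entered through pLF only. The 5 that passed in both conditions had means of 28.5% and 38.5% in pLF and 26.6% and 26.0% in pMF. For the 5 NSUN2-like sites it was 22.3%, 23.8%, 20.5% and 23.4%, with overlapping groups. High-confidence sites of other context had means of 16.4%, 18.7%, 16.6% and 18.2%.

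The smallest p among them was in Hnrnpa2b1, which encodes an RNA-binding protein of the hnRNP A/B family. Its 3′ UTR site was at 50.1% and 33.1% in pLF and at 5.22% and 14.7% in pMF, from 715, 1268, 575 and 511 reads. Both pLF libraries were far above both pMF libraries, at a site that entered through pLF only (pooled difference 29.6, Fisher's exact test adjusted p = 5.45e-72, beta-binomial adjusted p = 2.24e-11). It did not pass limma (adjusted p = 0.174). The beta-binomial test takes a shared overdispersion for all filtered sites, while the replicates of this site were far apart. In total mRNA the same cytosine was between 0.259% and 0.990% in all 4 libraries, near full conversion. Slc6a6, the taurine transporter, was at 23.3%, 39.9%, 21.7% and 13.9% in polysome mRNA and at or below 0.572% in total mRNA. Eif3e, a subunit of the initiation factor eIF3, was at 31.7%, 17.5%, 4.11% and 6.36%, and at or below 0.265% in total mRNA.

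Low levels in total mRNA were also found at other isolated sites. Ubqln1, which encodes a ubiquilin, was at 13.8%, 19.7%, 1.05% and 8.20% in polysome mRNA, and at or below 0.398% in the 3 total mRNA libraries that listed it. Gltp, a glycolipid transfer protein, was at 37.9%, 24.4%, 2.86% and 15.2%, with both pLF libraries higher. In total mRNA it was listed in LF replicate 2 only, at 2.86% from 35 reads. Acp1, a low-molecular-weight phosphatase, was at 9.94%, 26.5%, 14% and 10.5%, with overlapping groups, and at or below 0.0697% in the total mRNA libraries that listed it. Zfp207, a zinc finger protein, had the highest pooled level of the 19 in both conditions. It was at 73.4%, 83.1%, 59.1% and 66%, from 64, 177, 22 and 47 reads, and did not pass (Fisher's exact test adjusted p = 0.0570). In total mRNA it was at or below 0.468%. Other sites of the 14 without either context had higher levels there and did not pass. In total mRNA Piezo1 was between 7.63% and 10.5%, Ttl between 3.77% and 10.3%, and Panx1 between 3.92% and 9.52%. Whether the unconverted reads of the isolated sites are m5C was not tested.

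Both Ccnd1 sites were also higher in pLF. Ccnd1 encodes cyclin D1, which drives entry into the cell cycle, and the sites lie 2 bases apart in its last exon with nearly equal coverage. The upstream site was at 55.4% and 39.9% in pLF and 13.8% and 17.2% in pMF, and the downstream site at 42.5% and 23.1% against 11.4% and 11.7%. Both groups were well apart, by 29.8 and 19.2 percentage points in pooled level (beta-binomial adjusted p = 3.39e-08 and 0.000881). The pLF replicates were also apart, and neither site passed limma (adjusted p = 0.174 for each). In total mRNA both were between 0.704% and 1.55%.

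**Figure D3:**
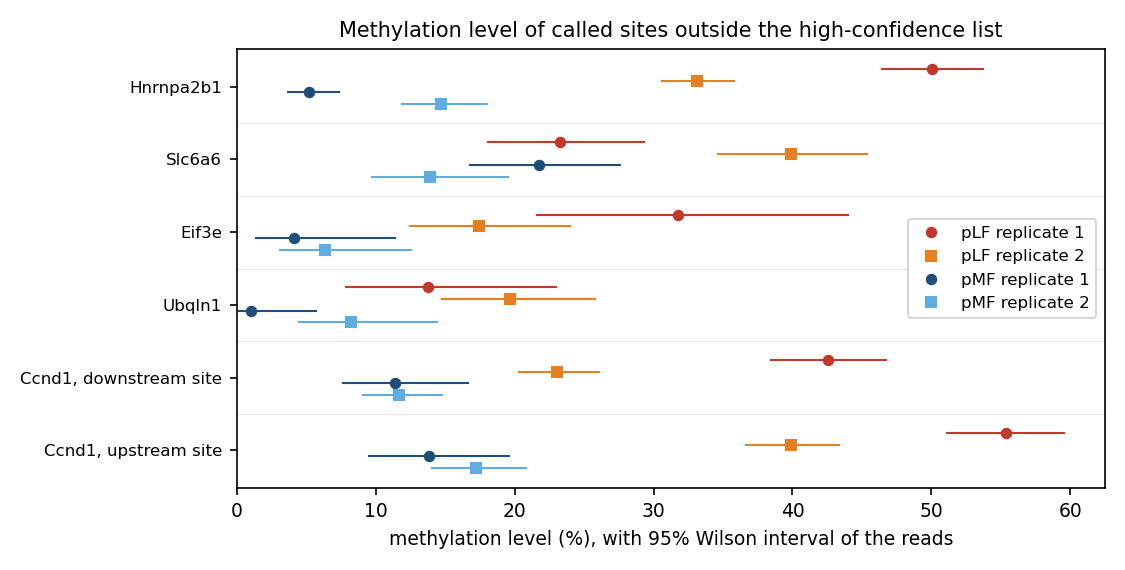
Methylation level (horizontal axis, %) at 4 isolated sites and the pair of Ccnd1 sites that passed the standard filter but are not on the high-confidence list, with the 95% Wilson interval of the reads of each library. The pLF libraries lie above the pMF libraries at each site, by the widest margin at Hnrnpa2b1 and the upstream Ccnd1 site, and at Slc6a6 pLF replicate 1 (23.3%) is close to pMF replicate 1 (21.7%).

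Clustered nuclear sites were mostly fully unconverted or did not differ. Of the 836, 579 had a mean level over 0.9, and 1 of these was higher in pLF and 0 lower. Of the 257 others, 21 were higher and 2 lower, and their mean levels were 33.1% and 35.0% in pLF and 33.0% and 32.0% in pMF. The higher ones came from few genes. In Skida1, where all 8 sites entered through pLF only, 6 were higher, with mean levels of 25%, 18.3%, 10.8% and 8.19%. In Igfbp3, a binding protein of insulin-like growth factors, 3 of 3 were higher, at means of 14.6%, 15.8%, 11.6% and 12.8%. In Cmss1 all 7 passed with overlapping groups, at means of 24.8%, 29.1%, 23.3% and 25.8%. No site passed in the clusters of Eif4ebp2 (12 sites), Vim (11) or Junb (10). Sites of a cluster are covered by the same reads and count as 1 observation of that gene.

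The largest block lay in mt-Co1, the mitochondrially encoded subunit 1 of cytochrome c oxidase. All 63 sites, within 1033 bases of the mitochondrial genome (5577 to 6609), had both pLF levels above both pMF levels. Over all 1074 sites, 23% had groups that did not overlap, 15.7% with pLF higher and 7.26% with pLF lower. Fisher's exact test passed 56 of the 63, all higher, while the beta-binomial test and limma passed 0. Neighbouring sites are covered by the same reads, so these are not separate observations. The filter had admitted 59 of the 63 through pLF only, so their direction is in part fixed by it, and the 4 that passed in both conditions were all higher. The mean level was 24.8% in pLF replicate 1, 17.8% in pLF replicate 2, 8.53% in pMF replicate 1 and 8.32% in pMF replicate 2. In total mRNA this mean, which weighs each site equally, was between 1.60% and 2.31%. Single sites there ranged widely, from 0.143% to 19.1% in LF replicate 1. The mean number of unconverted reads per site was 12.3, 26.7, 12.4 and 14.9, and that of converted reads 38.7, 143, 161 and 206, in the same order of polysome libraries. In the LF and MF libraries of total mRNA, unconverted reads were between 55.2 and 71.8 per site and converted reads between 25173 and 34089. Both counts were above those of every polysome library, by far the most for converted reads. Whether the higher level in polysome mRNA reflects more methylation was not tested. In pLF replicate 1 the count of unconverted reads was close to that of pMF replicate 1, and the count of converted reads was lower. In pLF replicate 2 the count of unconverted reads was higher than in either pMF library, and that of converted reads lower. The last 4 sites, from 1021 to 1032 bases after the first, had the highest levels in each library, from 45.0% to 50% in pLF replicate 1 and from 16.7% to 19.4% in pMF replicate 1. Of the mt-Co1 sites 4.76% were NSUN2-like, below the 22.4% of background cytosines.

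**Figure D4:**
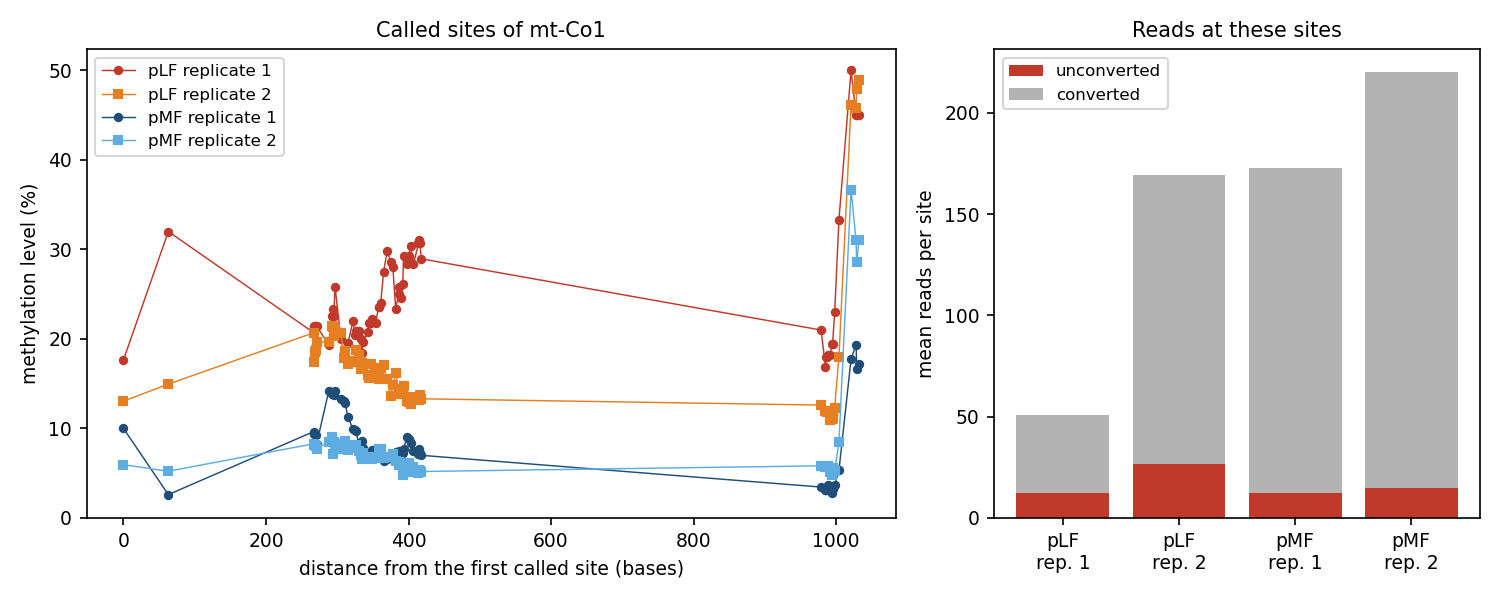
Left, methylation level (%) of the 63 filtered sites of mt-Co1 by distance from the first site in bases, 1 line per polysome library. Right, mean number of unconverted and converted reads per site in each library. Converted reads are fewest in pLF replicate 1 (38.7), and unconverted reads are between 12.3 (pLF replicate 1) and 26.7 (pLF replicate 2).

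Gene coverage did not separate the conditions at the threshold. Of 14684 gene entries in any of the 4 libraries, 7682 had 10 or more listed cytosines with a level under 0.05 in each library, and 218 of these entries name several genes. By limma 0 genes passed (0%), with 142 higher and 185 lower at an unadjusted p under 0.05 (4.26%), and edgeR's quasi-likelihood test on the same values also passed 0. The groups did not overlap in 32.9% of genes. The libraries hold polysome mRNA of bulk cultures. From these 4 libraries alone, fewer cells of a type, less mRNA per cell and a smaller share of an mRNA on polysomes cannot be told apart. Total mRNA is set beside them further below. The median was taken over different cytosines in each library, and library values correlated between 0.807 and 0.847 across genes. Zfp414, a zinc finger gene, had a coverage of 572 and 728 in pLF and 25 and 26 in pMF, from as few as 11 cytosines (log2 difference 4.43, limma adjusted p = 0.662). Anapc4, a subunit of the anaphase-promoting complex, had 140 and 189 against 1333.5 and 1218.5. Its log2 difference was -3.21 over all its listed cytosines and -0.25 over those listed in all 4 libraries.

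Restricting each gene to the 221389 cytosines listed in all 4 libraries gave a narrower comparison of 2683 genes, with correlations between 0.963 and 0.983. This setting was one of the alternatives, and it passed 3 genes by limma (0.112%), all lower in pLF, with 48 higher and 99 lower at an unadjusted p under 0.05 (5.48%). Slc7a11 encodes the cystine/glutamate antiporter. Its relative coverage, where 1 is the median gene of a library, was 0.183 and 0.525 in pLF and 0.732 and 0.869 in pMF, so that pLF replicate 1 was much lower than the other libraries (log2 difference -1.36, SE 0.296, adjusted p = 0.0414 by limma). Over all its listed cytosines the log2 difference was 1.27, of opposite sign. Slc6a9, the glycine transporter GlyT1, was at 0.197 and 0.227 against 0.459 and 0.495, with close replicates (log2 difference -1.18, SE 0.253, adjusted p = 0.0414 by limma). The predicted gene Gm11249 was at 0.278 and 0.345 against 0.569 and 0.844 (-1.16, SE 0.249). Without pMF replicate 1 or without pMF replicate 2 the fit passed 0 genes, without pLF replicate 1 it passed 19, and without pLF replicate 2 it passed 337. With edgeR it passed 0. None of the 3 genes was measured on cytosines listed in all 8 libraries.

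The genes next in order by p did not pass. On the lower side, mt-Co1 was at 0.302 and 0.496 in pLF and 0.750 and 0.829 in pMF (log2 difference -1.03, limma adjusted p = 0.101). Spp1, which encodes osteopontin, was at 0.364, 0.586, 0.923 and 0.908, and Slc38a2, a neutral amino acid transporter, at 0.617, 0.930, 1.29 and 1.25. Pdzd8, Zbtb20 and Hspa9 completed that side, with log2 differences of -1.23, -1.31 and -0.70. In each of these genes pLF replicate 1 was the lowest library. On the higher side, the predicted gene Gm6311 was at 7.19 and 6.55 in pLF and 4.03 and 4.48 in pMF (0.69, limma adjusted p = 0.128). The entry that joins Gm45234 and Grcc10 was at 3.45 and 4.44 against 2.43 and 2.30 (0.73), and Gm4332 at 2.21 and 3.83 against 2.06 and 1.43 (0.76). In these 3 entries the groups did not overlap. Next came Cplx2, Map3k11 and Tmco1, with log2 differences of 0.68, 0.68 and 0.63 (limma adjusted p = 0.516 for each). Cplx2, a complexin, was at 1.65 and 1.26 in pLF and 0.993 and 0.822 in pMF, and Map3k11, a kinase of the JNK pathway, at 1.66, 1.17, 0.921 and 0.824. Both had groups that did not overlap, as 33% of the 2683 genes did. Over all listed cytosines all 3 had a log2 difference of -0.10, of opposite sign.

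Genes of the ATF4 stress response, which cells induce when amino acids or reduced glutathione run short, lay mostly below 0. Of 27 on the list, 23 were measured on shared cytosines. 1 passed the test, Slc7a11 (lower), and 20 were below 0. Their median log2 difference was -0.30, against 0.02 over all 2683 genes, and 11 had both pLF values below both pMF values, where 15.1% of all genes did. Slc7a1, the cationic amino acid transporter, was at 0.745 and 0.992 in pLF and 1.29 and 1.42 in pMF (log2 difference -0.66). Slc3a2, the heavy chain partner of Slc7a11, was at 1.49 and 1.63 against 2.19 and 2.39 (-0.56), and Aldh18a1, an enzyme of proline synthesis, at 0.996 and 1.28 against 1.73 and 1.79 (-0.64). In these members both pLF libraries were lower, and none passed limma (adjusted p = 0.516 to 0.595). Without pLF replicate 1 the median of the list was -0.12.

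No gene of the translation and respiratory machinery passed. Of 65 cytosolic ribosomal protein genes, 0 passed, 41 were above 0 and the median was 0.08. It was 0.27 without pLF replicate 1, and 0.14 over all listed cytosines (73 genes). In 13 of the 65 both pLF values lay above both pMF values and in 2 below, against 18% and 15.1% of all genes. Of 68 nuclear-encoded respiratory chain genes, 0 passed, 46 were above 0 and the median was 0.07, or 0.20 without pLF replicate 1. Both pLF values lay above both pMF values in 20 of them and below in 4, against 18% and 15.1% of all genes. Ndufb10, a complex I subunit, was at 3.49 and 3.03 in pLF and 2.52 and 2.47 in pMF. Ndufs1, another complex I subunit, went the other way, at 0.549 and 0.794 against 0.892 and 1.01 (log2 difference -0.52). Of 42 translation factors, 0 passed and the median was -0.05, or 0.05 without pLF replicate 1, with Etf1, the release factor eRF1, at 0.0640 and 0.0790 against 0.127 and 0.131 (log2 difference -0.86, limma adjusted p = 0.600). Both mitochondrially encoded genes measured were below 0, mt-Co1 and mt-Nd6 (-0.38), with a median of -0.70.

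No gene of the pathways that use folate passed, and the sign of their medians depended on the cytosines used. Over all listed cytosines, the median was -0.13 for 23 genes of the folate cycle and thymidylate synthesis, with 10 above 0 and 13 below. It was -0.18 for 20 genes of the methionine cycle and polyamines, with 7 above 0 and 13 below. Tyms, the thymidylate synthase, had a relative coverage of 1.11 and 1.84 in pLF and 4.43 and 3.44 in pMF by that measure (log2 difference -1.45, limma adjusted p = 0.901). On shared cytosines, of 8 measured genes of the folate cycle and thymidylate synthesis, 0 passed, 5 were above 0 and the median was 0.08, or 0.14 without pLF replicate 1. Shmt2, the mitochondrial serine hydroxymethyltransferase, was at 1.36 and 1.85 in pLF and 2.28 and 2.43 in pMF (log2 difference -0.57, limma adjusted p = 0.595), while Dut, the dUTPase, was at 2.47 and 1.97 against 1.80 and 1.68 (0.34). Of 8 genes of the methionine cycle and polyamines, 0 passed and the median was 0.02, or 0.06 without pLF replicate 1. Ahcy, which removes S-adenosylhomocysteine, was at 1.60, 1.49, 1.45 and 1.29. Of 6 genes that write, remove or read m5C, 0 passed and the median was 0.16, or -0.05 without pLF replicate 1. Nsun2 itself was at 0.969 and 1.15 in pLF and 1.24 and 1.25 in pMF (-0.23, limma adjusted p = 0.981), and Nop2 at 0.846 and 0.929 against 1.02 and 1.04. The other 4 of the 6 were above 0, among them Ybx3 (0.35) and Srsf2 (0.28), both with overlapping groups.

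The other lists also held no gene past the threshold on shared cytosines. The medians were 0.09 for 21 DNA replication and cell cycle genes, -0.11 for 9 p53 targets, -0.03 for 8 cholesterol synthesis genes, -0.10 for 15 chaperones of the endoplasmic reticulum, -0.16 for 21 genes of collagens and matrix, -0.02 for 6 genes of metallothioneins and zinc transport, and 0.05 for 7 immediate early genes. Without pLF replicate 1 the median was -0.33 for collagens and matrix, -0.19 for cholesterol synthesis, -0.01 for p53 targets, -0.11 for immediate early genes and 0.02 for metallothioneins and zinc transport, the last pair with the sign turned. Over all listed cytosines the medians were of opposite sign to those on shared cytosines for cholesterol synthesis (0.20, 19 genes), immediate early genes (-0.14, 14 genes) and p53 targets (0.01, 15 genes), and the median was -0.03 for 37 genes of collagens and matrix. Among matrix genes, Fbn2, which encodes fibrillin-2, was at 0.488 and 0.523 in pLF and 0.743 and 0.902 in pMF (log2 difference -0.70). Among cell cycle genes, Top2a, the topoisomerase of dividing cells, was at 1.08 and 1.46 against 1.62 and 1.80 (-0.44), and Mcm3, a subunit of the replicative helicase, at 2.05 and 2.10 against 1.81 and 1.56 (0.31).

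Markers of NSCs and of other cell types were read beside these lists. Of 11 NSC markers measured on shared cytosines, 0 passed, 6 were above 0 and the median was 0.00, or -0.41 without pLF replicate 1. Id3, an inhibitor of differentiation, was at 2.34 and 2.02 in pLF and 1.51 and 1.41 in pMF, and Slc1a3, the glutamate transporter GLAST, at 0.263 and 0.380 against 0.522 and 0.521. Over all listed cytosines, the summed relative coverage of 17 NSC markers was 142 and 159 in pLF and 139 and 151 in pMF. For 8 of 12 astrocyte markers it was 62.4 and 72.8 in pLF and 54.5 and 55.4 in pMF. Of this sum, Apoe alone held 47.3 and 55.6 in pLF and 39.2 and 42.8 in pMF. All 8 were above 0 (median 0.41, against 0.04 over all genes), and Aqp4, Slc1a2, S100b and Gjb6 did not reach the minimum. On shared cytosines 3 of 4 astrocyte markers were above 0 (median 0.12, or 0.07 without pLF replicate 1), and Gja1 was at 0.0614 and 0.0673 in pLF and 0.0915 and 0.0893 in pMF (-0.49). For 5 of 16 pericyte, smooth muscle and fibroblast markers (Pdgfrb, Acta2, Tagln, Col1a2 and Col3a1) the sum was 22.6 and 21.2 against 17.1 and 14.3. Of it, Tagln held 8.43 and 11.3 against 7.37 and 4.58, and Col1a2 11.2 and 6.92 against 7.47 and 7.38. All 5 were above 0, and on shared cytosines 4 of 4 were above 0 (median 0.31). For 5 of 20 neuron markers (Tubb3, Map2, Dlx1, Dlx2 and Celf4) the sum was 2.77 and 2.41 against 3.98 and 3.40. Of these, 4 of 5 were below 0 (median -0.29), and Dcx and Rbfox3 did not reach the minimum. None of these markers passed limma, and their part in the differences above was not tested.

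**Figure D5:**
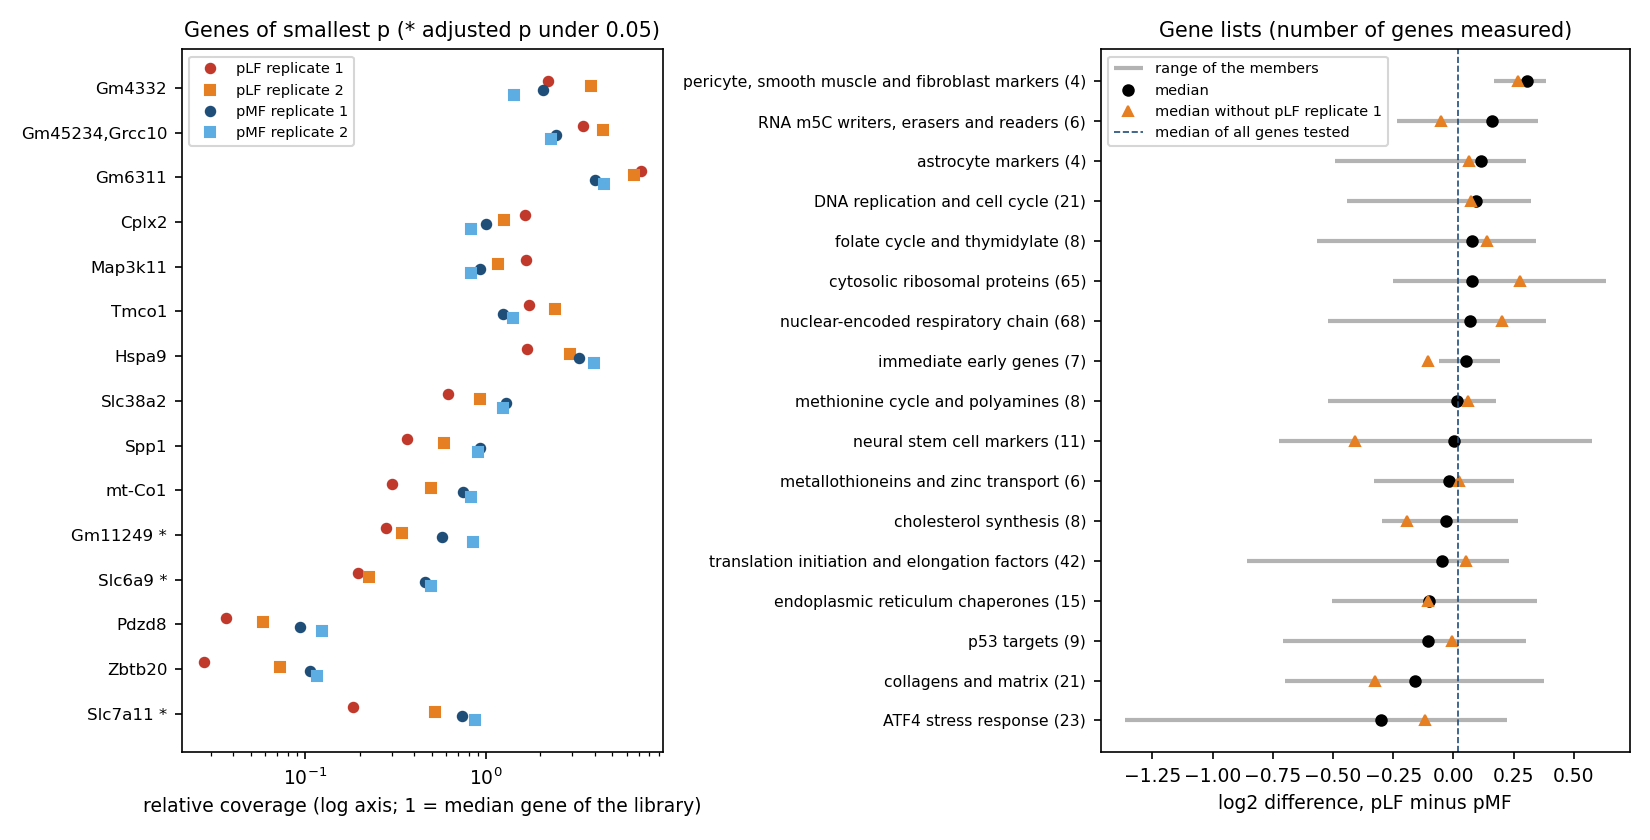
Left, relative coverage (log axis) of the genes of smallest p on cytosines listed in all 4 libraries, 1 point per library; an asterisk marks the 3 genes past the threshold. Right, median log2 difference (pLF minus pMF) of each gene list as a black point, with the range of its members as a bar and the median without pLF replicate 1 as a triangle; of the lists drawn, those with 4 or more genes measured, the ATF4 list has the lowest median with all libraries, at -0.30, but not without pLF replicate 1 (-0.12, against -0.41 for NSC markers), and the dashed line is the median of all genes tested (0.02).

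The difference between low and mid folate was set against that in total mRNA with an interaction term, over 8 libraries. Of 141 high-confidence sites, limma passed 1, the site in Fam131a. Its level was lower in pLF than in pMF, as given above, while in total mRNA it was 17.2% and 21.9% in LF and 7.55% and 7.04% in MF, from 53 to 73 reads. The difference of differences was -2.35 on the log2 odds scale (SE 0.350, limma adjusted p = 0.0390). This fit gives each site the same weight whatever its number of reads. The SE therefore takes no account of the low coverage in total mRNA and can understate the error. Igfbp4 went the other way, with 1.82% and 4.17% in LF and 13.3% and 8.25% in MF, and did not pass (2.38, limma adjusted p = 0.136). For gene coverage, 1 of 7543 genes passed the interaction, S100a16, which encodes a calcium-binding protein. Its coverage was 637 and 483 in pLF and 2814 and 1851.5 in pMF, and 7817 and 6553.5 in LF and 604.5 and 908.5 in MF (difference of differences -5.61 on the log2 scale, limma adjusted p = 0.0396). On cytosines listed in all 4 polysome libraries the log2 difference of S100a16 between pLF and pMF was 0.35, of opposite sign to -2.28 over all listed cytosines, and limma passed 0 of 1354 genes in the interaction on cytosines listed in all 8 libraries.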

How the data were processed

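RNA BS-seq libraries of polysome poly(A) mRNA from NSCs were analysed from 1 list of cytosines per library, with LF and MF total mRNA beside them. Per the study's methods, the authors made stranded libraries, trimmed their reads (fastp), kept unique alignments to mm10 (meRanGh) and called cytosines from them (meRanCall). The deposited values are whole-number counts of all reads and of unconverted reads at each cytosine, not normalized between libraries by the authors. The deposited level is a fraction, which the authors obtained as unconverted over unconverted plus converted reads. The submitters' processing notes name R 4.1.1. Levels were recomputed without variant reads. The 3C, signal/noise and structure filters of the study were not repeated, and its high-confidence list was used for positions only. Incomplete conversion, RNA structure and PCR copies can therefore enter the levels. The list leaves out positions that failed the study's filters, but the levels on it come from the same counts. Features come from GENCODE vM21, and the 21 bases of all 1074 filtered sites equalled GRCm38.p6.

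Sites were tested by Fisher's exact test on pooled reads, a beta-binomial likelihood ratio test in which all sites share an overdispersion, and limma 3.58.1 (R 4.3.3) on log2 odds with a pseudocount of 0.5. Gene coverage was tested by limma with a trend on log2 values centred on each library's median, and by edgeR 4.0.16. p-values were two-sided and adjusted by Benjamini-Hochberg over all features tested, with a threshold of 0.05. Single values per library were compared by exact permutation, where 2 against 2 allow no p under 0.333. Python 3.11.15 with pandas 2.3.3, scipy 1.17.1 and matplotlib 3.10.9 was used. Scripts were tested on simulated data. Wilson intervals of 95% cover counting error only, and at the lowest coverage of 20 they are wide. The members, gene lists and tests were chosen with earlier results of these data known.

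Named sites were those past the threshold whose groups do not overlap (at most 8 in each direction), those also passed by another test, the 4 of smallest difference with a coverage of at least 100, and the 4 isolated sites off the list of smallest p. 1 of the sites of smallest difference is not reported here. The sites in Glod4, Zfp24, Acp1, Gltp, Zfp207, Piezo1, Ttl and Panx1 and the clusters by gene were named after their values were seen. Named genes were those past the threshold, up to 6 of smallest p in each direction where fewer passed, and up to 4 of smallest p in each list.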

Additional observations from a re-analysis of the deposited data

Results flagged for a closer look

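2 results differed between polysome and total mRNA by a test of the difference itself. The level of the site in Fam131a was lower in pLF than in pMF and higher in LF than in MF in every library. Its difference of differences was -2.35 on the log2 odds scale, from 53 to 73 reads in total mRNA, a depth the fit did not weigh. The gene coverage of S100a16 was lower in pLF than in pMF and higher in LF than in MF in every library, with a difference of differences of -5.61 on the log2 scale. The latter rests on different cytosines in different libraries. No group had 4 samples, so no library was tested as an outlier.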

How the results depend on the processing

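With 2 libraries per group, the tests of sites and genes depended on how the spread between replicates was treated. Among high-confidence sites Fisher's exact test passed 17, the beta-binomial test 1 and limma 0. Leaving out 1 library gave 8 to 24, and the 95 sites listed for both conditions, a choice made after seeing the data, gave 9. Among filtered sites Fisher's exact test passed 104, the beta-binomial test 3 (Hnrnpa2b1 and the neighbouring pair in Ccnd1) and limma 0. Run again, Fisher's exact test passed 46 with each site thinned to its smallest coverage, 30 over isolated sites alone, 41 without chromosome MT, and 66 to 97 with 1 library left out. The difference in mean level was 0.794 over all isolated sites, of opposite sign to -0.175, and between -0.766 and 0.416 when 1 library was left out. Gene coverage passed 0 genes, but 3 on cytosines listed in all 4 libraries and 1 (Zfp414) in a fit on 8 libraries. S100a16 turned to 0.35 on shared cytosines. The alternatives for shared cytosines were chosen after seeing the data. The shared-cytosine fit passed 0 genes with cyclic loess, quantile normalization, scaling by summed coverage, a minimum of 5 cytosines, limma without the trend, edgeR with TMM, a correction for exon GC content and length, or on 8 libraries, whose 1354 genes include none of the 3, and leaving out 1 library gave 0 to 337. The interaction of gene coverage passed 1 gene, or 0 on cytosines listed in all 8 libraries. The cause of these changes was not tested.

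The replicate number was also fitted as a block. Deviations of same-numbered libraries correlated at -0.031 for gene coverage, 0.106 on shared cytosines and -0.0726 for site log odds, so the number is not taken to pair the libraries. With the block, the Cochran-Mantel-Haenszel test passed 16 high-confidence and 102 filtered sites, limma 0 and 0, and gene coverage 0, also with the correction for GC content and length. On shared cytosines 11 genes passed with the block, 3 higher and 8 lower in pLF. Over the settings run, 46 summary values stayed on the same side, 29 moved and 2 turned sign, and among named sites and genes 415 kept their call, 136 kept their direction but not the threshold, 1 gained the threshold and 1 turned sign. Slc7a11, Cplx2, Map3k11 and Tmco1, named on shared cytosines, also had the opposite sign over all listed cytosines.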

Other observations

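Of the 1822 filtered sites, 748 lacked a coverage of 20 in at least 1 library and were not compared. Of these, 705 had passed the filter in pLF only and 43 in pMF only, 513 lay in no gene, 563 had a mean level over 0.9, and 268 were not listed in at least 1 library. Before any coverage requirement in the other libraries, the filter kept 2840 and 4072 sites in pLF and 1475 and 1909 in pMF, and of these 119, 219, 37 and 17 were on chromosome MT. Sites with a level over 90% numbered 1233 and 1727 in pLF and 662 and 1012 in pMF, most of them outside genes (991, 1343, 556 and 761). These counts were highest in pLF replicate 2, which has the highest summed coverage. They were higher in pLF replicate 1, whose summed coverage was the lowest of the 4, than in either pMF library. The cause was not tested.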
